A study of Mus musculus with 4 samples.

Results

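Lysyl hydroxylases and lysyl oxidases carry out the first and the last step of collagen crosslinking, and their expression was compared between 4T1 cells with high and low mitochondrial membrane potential (MMP). The genes were chosen by name, as *Lox*, *Loxl1*, *Loxl2*, *Loxl3*, *Loxl4*, *Plod1*, *Plod2* and *Plod3*. Of these 8 genes, 7 were among the 20197 genes of the analysed table, and all 7 had reads in each library. *Lox* was not analysed here. *Loxl1* had been picked because an earlier look at these same libraries showed it to differ between the groups, so its values are given as a description with no test. The other 6 genes came in with their family and were tested.

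4T1 is a mouse mammary carcinoma line, and the labels give its genotype as wild type. All cells, in both groups, were stained with 20 nM MitoSpy Red, a dye that accumulates in mitochondria with high membrane potential. The brightest 5% were sorted as high MMP cells (n = 2) and the dimmest 5% as low MMP cells (n = 2). Each sample was RNA from 100000 cells, and 200 ng entered a stranded mRNA library. Both groups were thus sorted from 1 cultured line. The study's legends mark the samples of a group as independent experiments, while the labels do not say whether samples with the same number came from the same one. Values are normalized reads, on a scale where each library sums to 20000000. Differences are given on the log2(value + 1) scale as high MMP minus low MMP, and an SE or interval is that of the limma fit described with the methods.

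The libraries held 22591970 to 26395015 recovered reads. High MMP 1 stood apart from the other 3 in the share of reads from the 13 mitochondrially encoded proteins, with 1.27% against 2.02% to 2.24%. The labelled epithelial cell type was present in the markers. Of 10 epithelial markers, 9 were measured, and their summed level was 55584 to 74006 in high and 61668 to 70367 in low MMP cells. *Krt5* was not analysed. Of 8 fibroblast markers 4 were measured, with a summed level of 335 to 376 in high and 549 to 606 in low MMP cells, nearly all of it from *Pdgfra*, while *Dcn*, *Fap* and *Pdgfrb* had at most 10.5 normalized reads in any library. Of 9 blood and endothelial markers 4 were measured, with a summed level of 66.7 to 143 in high and 99.2 to 151 in low MMP cells. *Ptprc*, *Pecam1* and *Cdh5* had at most 10 reads in each library, and the rest was *Cd68*.

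Collagen chains are hydroxylated on lysine in the endoplasmic reticulum by the lysyl hydroxylases, which need iron, 2-oxoglutarate and ascorbate. PLOD1 acts mainly on the lysines of the triple helix, PLOD2 on those of the telopeptides, which decides the chemistry of the later crosslink, and PLOD3 also transfers sugars to hydroxylysine. After secretion, the lysyl oxidases, copper enzymes with a quinone cofactor, convert lysine and hydroxylysine of collagen and elastin to aldehydes that then condense into crosslinks. In mammary tumors crosslinked collagen stiffens the matrix, and LOX, LOXL2 and PLOD2 are known as hypoxia-induced genes with roles in invasion and metastasis.

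RefSeq promoters (GRCm38.p6, 250 bases before to 50 after the start) were at hand for *Loxl4*, *Plod1* and *Plod3*, 3 genes that had their lowest level in the same library. They are printed 5′ to 3′ on the strand of the gene, with matches in capitals to GCGTG and ACGTG, the core letters to which hypoxia-inducible factors bind, and to GGGCGG, the GC box, on either strand. No matches overlapped.

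*Loxl4* (chr19:42612757-42613056, minus strand): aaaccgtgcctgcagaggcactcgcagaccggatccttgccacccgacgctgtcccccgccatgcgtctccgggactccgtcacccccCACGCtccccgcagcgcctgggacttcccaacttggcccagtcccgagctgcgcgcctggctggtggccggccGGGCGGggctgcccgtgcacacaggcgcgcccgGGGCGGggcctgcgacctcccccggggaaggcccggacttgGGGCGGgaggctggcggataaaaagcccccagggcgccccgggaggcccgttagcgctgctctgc
*Plod1* (chr4:147936727-147937026, minus strand): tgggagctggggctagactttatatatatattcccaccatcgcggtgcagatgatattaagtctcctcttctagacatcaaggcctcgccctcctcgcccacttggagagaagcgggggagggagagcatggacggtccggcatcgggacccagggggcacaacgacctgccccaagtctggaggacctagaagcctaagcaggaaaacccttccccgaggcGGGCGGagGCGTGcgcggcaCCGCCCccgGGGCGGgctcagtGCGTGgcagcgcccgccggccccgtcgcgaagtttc
*Plod3* (chr5:136986769-136987068, plus strand): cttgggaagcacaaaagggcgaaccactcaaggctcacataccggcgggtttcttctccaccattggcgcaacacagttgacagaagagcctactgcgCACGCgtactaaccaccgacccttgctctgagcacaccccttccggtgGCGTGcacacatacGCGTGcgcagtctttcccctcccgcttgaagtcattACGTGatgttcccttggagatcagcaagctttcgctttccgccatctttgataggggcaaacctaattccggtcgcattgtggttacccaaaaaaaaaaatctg

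The *Loxl4* and *Plod1* promoters are rich in G and C, at 75% and 64.3%, against 53.3% for *Plod3* and a median of 52.7% over 32851 promoters. Each holds 3 GC boxes, a motif found in 35.7% of all promoters, and *Plod3* holds none. GCGTG occurs once in *Loxl4*, at 2 positions in *Plod1* and at 3 in *Plod3*, which also has 1 ACGTG. In all promoters GCGTG was found in 32.4%, ACGTG in 19.6% and at least 1 of them in 43.8%. These are matches of letters and not sites shown to be bound.

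The 7 genes fell into separate tiers of expression when reads were set against exon length. *Loxl4* was the most abundant, with 24.3 and 38.1 RPKM (reads per kb of exon and per 1000000 reads) in high MMP 1 and 2 and 35.9 and 31.8 in low MMP 1 and 2. *Plod3* followed with 16.2 to 23.2 over the 4 libraries and *Plod2* with 12.6 to 19.6. The ranges of these hydroxylases overlapped, but *Plod3* was above *Plod2* within each of the 4 libraries. *Plod1* (1.52 to 3.04) and *Loxl3* (1.89 to 2.53) formed a lower tier, and their ranges overlapped, with *Plod1* the higher in 3 of 4 libraries. *Loxl1* had 0.106 to 0.494 and *Loxl2* 0.0242 to 0.0619 RPKM. *Loxl4* made up 91.0% to 94.6% of the length-scaled reads of the 4 measured lysyl oxidases.

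**Figure D1:**
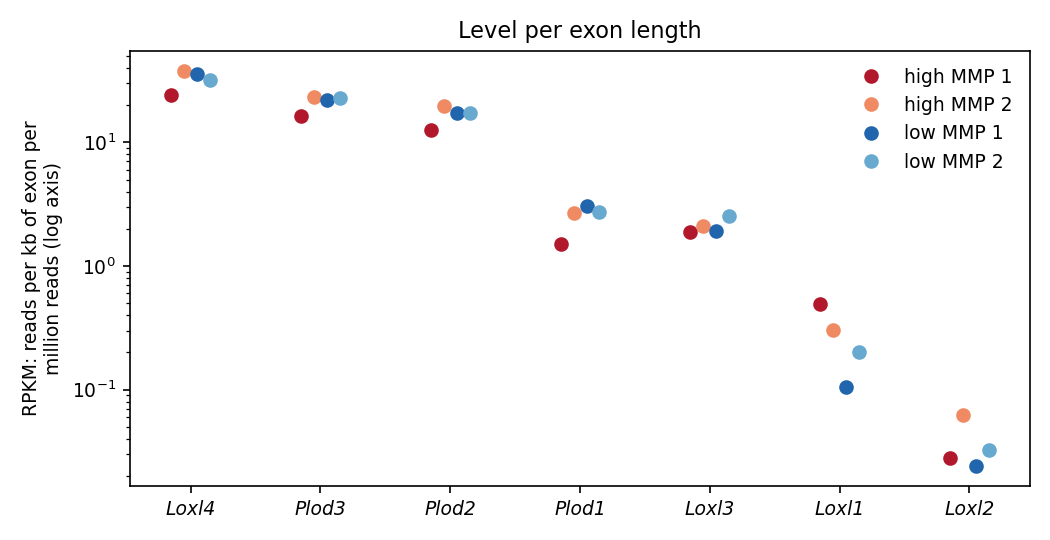
RPKM (log axis) of the 7 measured genes, with a point for each of the 4 libraries. *Loxl4*, *Plod3* and *Plod2* sit between 12.6 and 38.1, *Plod1* and *Loxl3* between 1.52 and 3.04, and *Loxl1* and *Loxl2* below 0.5.

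The abundant genes *Loxl4*, *Plod2* and *Plod3* were lowest in high MMP 1 and highest in high MMP 2. With 2 samples a group, it cannot be told which high MMP library was the unusual one. *Loxl4* (ENSMUSG00000025185, GRCm38 chromosome 19, 42593982 to 42612813, minus strand, protein-coding), a secreted lysyl oxidase with scavenger receptor domains, had 2046 normalized reads in high MMP 1 and 3209 in high MMP 2, against 3024 and 2681 in low MMP 1 and 2. High MMP 1 was the lowest and high MMP 2 the highest of the 4, so the groups overlapped. *Plod2* (ENSMUSG00000032374, chromosome 9, 92542223 to 92608428, plus strand), the telopeptide hydroxylase, had 1361 and 2114 in high and 1872 and 1856 in low MMP cells. The low MMP libraries were nearly equal and lay between those of high MMP. *Plod3* (ENSMUSG00000004846, chromosome 5, 136987019 to 136996648, plus strand) had 1465 and 2100 in high and 2006 and 2070 in low MMP cells, with high MMP 1 again below the rest.

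*Plod1* (ENSMUSG00000019055, chromosome 4, 147909753 to 147936767, minus strand), the helical lysyl hydroxylase, had 205 and 363 normalized reads in high and 411 and 369 in low MMP cells. Of the 6 tested genes, *Plod1* alone had groups that did not overlap, by the small step from 363 to 369. Over all genes, 37.9% had groups that did not overlap. In bulk libraries fewer cells that express a gene and less RNA per cell cannot be told apart, which holds for every value here.

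**Figure D2:**
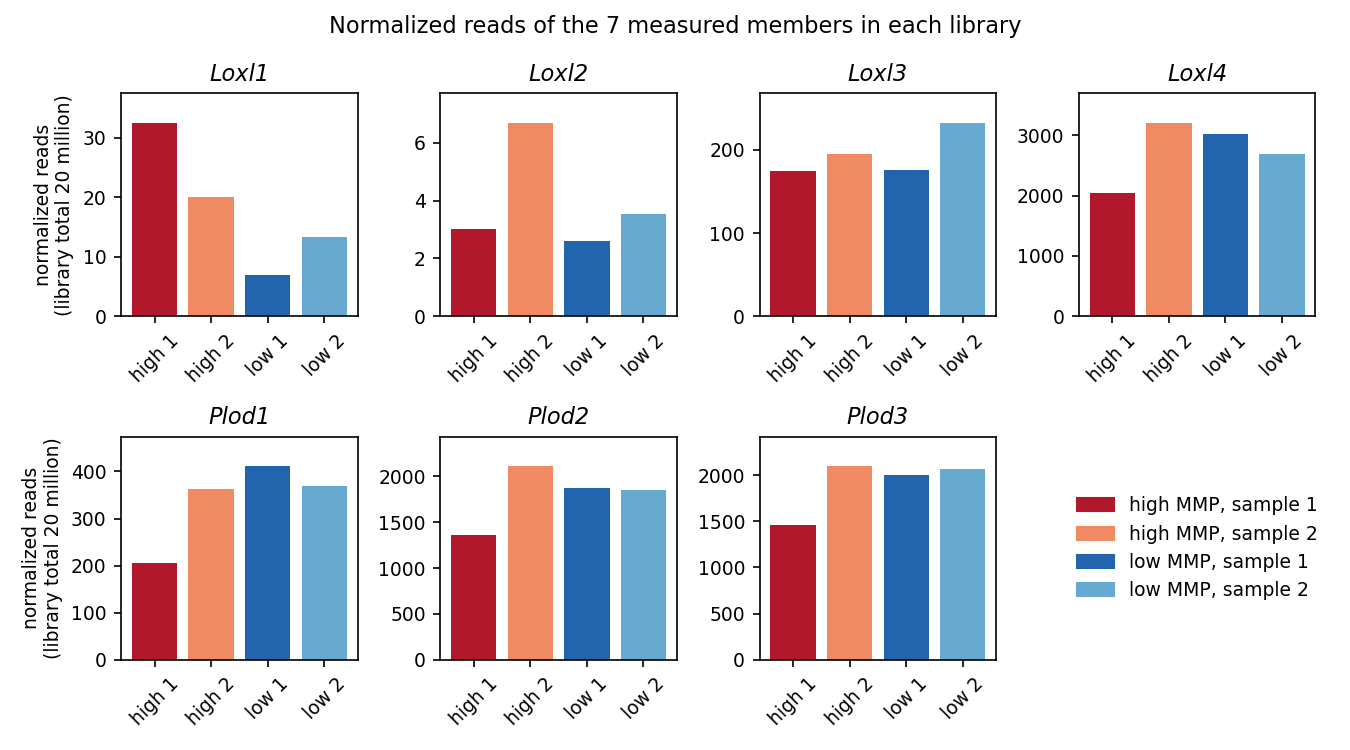
Normalized reads (bars, axis from 0, library total 20000000) of each measured gene in the 4 libraries, 1 sample a bar. High MMP 1 is lowest for *Loxl4*, *Plod1*, *Plod2* and *Plod3*, with 1361 against 1856 to 2114 for *Plod2*. It is also lowest for *Loxl3*, by 174 against 176 in low MMP 1, and highest for *Loxl1* at 32.6.

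High MMP 1 had 63.7% of the *Loxl4* level of high MMP 2, 56.5% of *Plod1*, 64.4% of *Plod2* and 69.8% of *Plod3*. On the log2 scale this gap between replicates was -0.65, -0.82, -0.63 and -0.52. The low MMP libraries differed by 0.17, 0.16, 0.01 and -0.05 in the same order. Gaps between the high MMP libraries at least as low were seen in 2.96% (*Loxl4*), 1.19% (*Plod1*), 3.29% (*Plod2*) and 6.17% (*Plod3*) of the 9999 genes averaging 100 or more normalized reads. Counting error was small beside these gaps, since each library had at least 271 reads for each of these genes. High MMP 1 was the lowest library for 5 of the 6 members averaging 10 or more, and for 37.3% of the 12902 genes at that level. This count was taken after the values were seen. It includes *Loxl3*, where high MMP 1 and low MMP 1 were nearly equal (174 and 176).

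In limma, 0 of the 6 tested genes had an adjusted p under 0.05 and 0 had an unadjusted p under 0.05. Over all genes, 0 of 20197 (0%) passed after adjustment and 9.96% had an unadjusted p under 0.05. On the recovered reads, edgeR called 0 of the 6 genes with no block (0% of all genes) and 0 with a replicate block (0.525%). DESeq2 gave an adjusted p to 5 of the 6 genes and called 0 of them, where 0.985% of the 11974 genes given one were called. With crossed numbers as the block, chosen after seeing the data, edgeR called 1, *Plod1*, among 3.63% of all genes. *Plod1* had the largest difference among the hydroxylases, from 390 ± 29.9 in low to 284 ± 112 in high MMP cells (SD, n = 2 each). On the log2 scale this was -0.51 (SE 0.30, 95% interval -1.33 to 0.31, limma adjusted p 0.697). *Plod3* differed by -0.22 (SE 0.19, interval -0.74 to 0.31, adjusted p 0.811), *Plod2* by -0.14 (SE 0.23, interval -0.76 to 0.49, adjusted p 0.929) and *Loxl4* by -0.15 (SE 0.24, interval -0.81 to 0.51, adjusted p 0.925). The intervals all span 0, and decreases of up to -0.74 to -1.33 remained within them.

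The sign of the small differences hung on high MMP 1. Without it *Loxl4* differed by 0.17, *Plod2* by 0.18 and *Plod3* by 0.04, and *Plod1* was left with -0.10. By construction these are the distances of high MMP 2 alone from the mean of the low MMP libraries. High MMP 1 alone stood -0.48 (*Loxl4*), -0.45 (*Plod2*), -0.48 (*Plod3*) and -0.92 (*Plod1*) from that mean.

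**Figure D3:**
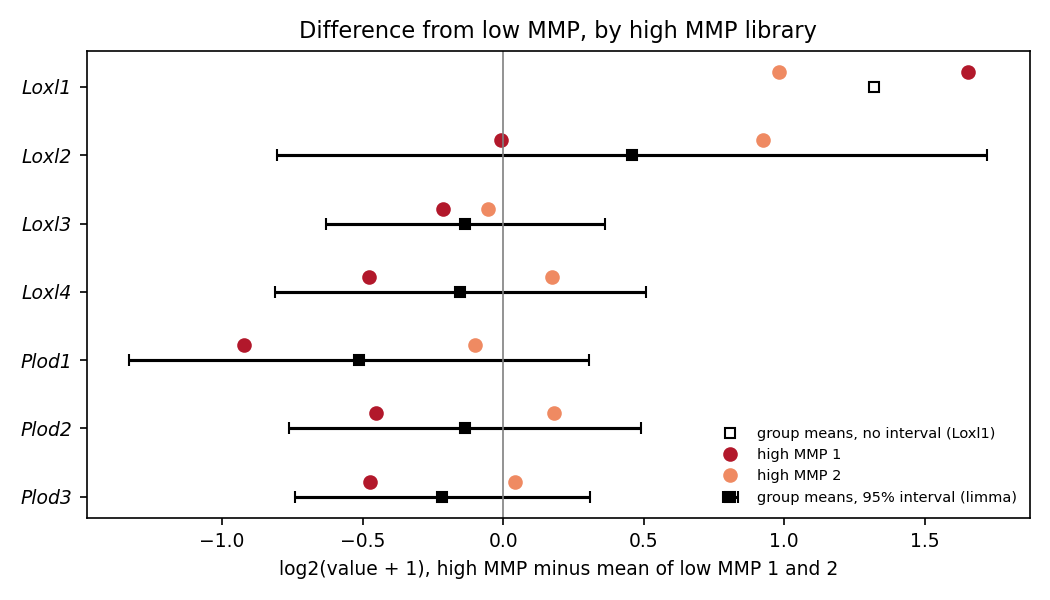
Difference from the mean of the low MMP libraries on the log2(value + 1) scale, for each high MMP library (circles) and for the group means (squares, with the 95% interval from limma, and open with no interval for *Loxl1*). For *Loxl4*, *Plod2* and *Plod3* the circles lie on both sides of 0, from -0.48 to 0.18, and each interval spans 0.

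Ratios between genes of 1 library do not depend on how it was scaled. *Plod2* per exon length was 0.778 and 0.844 of *Plod3* in high and 0.782 and 0.751 in low MMP cells. *Loxl4* was 0.800 and 0.837 of the summed hydroxylases in high MMP and 0.843 and 0.743 in low MMP cells. High MMP 1 lay inside the range of the other 3 in both ratios. *Plod1* was 5.00% and 5.90% of the length-scaled hydroxylase reads in high MMP cells and 7.14% and 6.37% in low MMP cells. Its share was thus lower in both high MMP libraries, by the small step from 5.90% to 6.37%, and this separation was not tested. The summed hydroxylases had 30.4 RPKM in high MMP 1 and 42.6 to 45.5 in the other 3 libraries.

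*Loxl3* and *Loxl2* showed no difference that exceeded the replicates. *Loxl3* (ENSMUSG00000000693, chromosome 6, 83034173 to 83052562, plus strand), which acts in the development of palate and spine, had 174 and 195 normalized reads in high and 176 and 233 in low MMP cells. High MMP 1 and low MMP 1 were nearly equal, and the difference was -0.13 (SE 0.18, 95% interval -0.63 to 0.36, adjusted p 0.896). *Loxl2* (ENSMUSG00000034205, chromosome 14, 69609068 to 69695834, plus strand), a secreted oxidase of basement membrane collagen that has also been described in the nucleus, rested on 4 and 8 reads in high and 3 and 4 in low MMP cells. The exact 95% Poisson intervals of these counts ran from 3.45 to 15.8 reads for the highest and from 0.619 to 8.77 for the lowest, and they cover counting error only. A difference of *Loxl2* was not detectable at this depth (0.46, SE 0.46, interval -0.80 to 1.72, adjusted p 0.847). Exons of *Loxl3* share 535 bases (11.6%) with *Htra2* on the other strand, and those of *Plod3* share 529 bases (11.7%) with *Znhit1*. The library kit keeps strand, but whether the counting used it is not stated.

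*Loxl1* (ENSMUSG00000032334, chromosome 9, 58287738 to 58313186, minus strand), the oxidase best known for elastic fibers, was the gene picked for its difference. It had 32.6 and 20.1 normalized reads in high MMP 1 and 2, and 6.97 and 13.3 in low MMP 1 and 2. All high MMP values were above all low MMP values, which is what led to its choice and is also true, in either direction, of 38.0% of genes averaging 10 or more normalized reads. The means were 26.3 ± 8.84 and 10.1 ± 4.46 (SD, n = 2 each), a ratio of 2.60 and a log2 difference of 1.32. These values came from 43 and 24 reads against 8 and 15. The exact Poisson intervals of these counts ran from 31.1 to 57.9 and from 15.4 to 35.7 reads in high MMP 1 and 2, and from 3.45 to 15.8 and from 8.40 to 24.7 in low MMP 1 and 2. The replicates of a group were themselves 0.67 (high 1 minus high 2) and -0.84 (low 1 minus low 2) apart. *Loxl1* also went the other way from the abundant enzymes in high MMP 1, where it was highest. At 0.399 ± 0.134 RPKM in high MMP cells against 31.2 ± 9.76 for *Loxl4* (SD, n = 2 each), it remained a minor part of the lysyl oxidase transcripts.

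The 5 genes with the pattern most like that of *Loxl1* over the 4 libraries were found among 12901 genes by the Euclidean distance between centred log2 values. They were *Asb4* (distance 0.27), *Mmp24* (0.28), *Hlf* (0.32), *Als2cr12* (0.44) and *Sod3* (0.45). *Mmp24*, a membrane-bound matrix metalloproteinase, had 78.8 and 53.6 normalized reads in high and 16.6 and 39.8 in low MMP cells. *Sod3*, the extracellular superoxide dismutase, had 37.1 and 32.6 in high and 8.72 and 14.2 in low MMP cells. *Hlf*, a PAR bZIP transcription factor, had 48.5 and 27.6 in high and 7.85 and 19.5 in low MMP cells. Like *Loxl1*, all 5 were low-count genes, with 9 to 104 reads per library, and likeness over 4 libraries is a description only.

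The other genes of the pathway were then examined. Of 65 genes in 5 lists 55 were measured. In limma 0 of them passed after adjustment and 8 had an unadjusted p under 0.05, against 9.96% of all genes. On the recovered reads edgeR called 0 with no block (0% of all genes) and 1 (*Pdk1*) with the replicate block (0.525%). DESeq2 called 0 (0.985% of the 11974 genes to which it gave an adjusted p). The first list holds the enzymes and chaperones that act on the same procollagen chains. Of 17 genes for collagen hydroxylation and folding 15 were measured, and 0 passed in limma after adjustment. High MMP 1 was the lowest library for 11 of these 15. Their median stood at -0.29 from low MMP in high MMP 1 and at 0.09 in high MMP 2, while the median of all genes averaging 10 or more was -0.04 and -0.03. The largest differences were those of prolyl hydroxylases. *P3h3*, a prolyl 3-hydroxylase family member, had 199 and 323 normalized reads in high and 378 and 381 in low MMP cells (-0.58, SE 0.26, adjusted p 0.588). *P4ha2*, a catalytic subunit of collagen prolyl 4-hydroxylase, had 202 and 255 in high and 324 and 335 in low MMP cells (-0.54, SE 0.15, adjusted p 0.472). *P4ha1*, the main such subunit, had 1456 and 1705 in high and 2063 and 2165 in low MMP cells (-0.42, SE 0.11, adjusted p 0.472). Unlike *Plod2* and *Plod3*, these 3 prolyl hydroxylases were below both low MMP libraries in both high MMP libraries. They were named for the largest differences of the list, so this contrast was partly set by the choice. Of all 15 measured genes of the list 5 lay below in this way, against 23.7% of all genes averaging 10 or more.

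The collagen substrates averaging 10 or more were all lowest in high MMP 1, and most of them were highest in high MMP 2. Of 13 collagen and elastin genes 9 were measured and 7 averaged 10 or more, and high MMP 1 was the lowest library for all 7 of these. Their median was -0.60 in high MMP 1 and 0.19 in high MMP 2. *Col4a1*, a chain of basement membrane collagen, had 7656 and 13665 normalized reads in high and 12206 and 11716 in low MMP cells (-0.23, SE 0.30, adjusted p 0.895). *Col5a1*, a fibrillar chain that sets fibril diameter, had 1048 and 1969 in high and 1875 and 1690 in low MMP cells (-0.31, SE 0.33, adjusted p 0.855). *Col1a1*, the major fibrillar chain, rested on 8 and 36 reads in high and 39 and 29 in low MMP cells (-1.04, SE 0.79, adjusted p 0.773). The groups overlapped for all 3.

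Among 15 genes for procollagen processing and partners of the lysyl oxidases, 11 were measured and 0 passed, with 9 above a mean of 10. *Postn*, a matricellular protein that helps to activate LOX, had 65.9 and 85.4 in high and 39.2 and 34.5 in low MMP cells (1.01, SE 0.22, adjusted p 0.472). *Adamts14*, a procollagen N-proteinase, had 245 and 333 in high and 468 and 482 in low MMP cells (-0.73, SE 0.18, adjusted p 0.472). *Ltbp4*, an elastic fiber protein, had 951 and 1755 in high and 1959 and 1626 in low MMP cells (-0.47, SE 0.33, adjusted p 0.752). *Postn* and *Adamts14* were thus apart between the groups in opposite directions, and *Ltbp4* was low in high MMP 1. These genes were named for the largest differences of the list. Of its 9 genes averaging 10 or more, 2 were apart and higher in high MMP cells and 1 was apart and lower. Over all genes at that level 38.0% were apart.

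Copper reaches the lysyl oxidases through *Slc31a1*, *Atox1* and *Atp7a*, an importer, a chaperone and the pump of the secretory pathway. Of 5 genes for copper and ascorbate supply all were measured and 0 passed. *Slc31a1* had 1156 and 1160 in high and 1275 and 1277 in low MMP cells (-0.14, SE 0.07, adjusted p 0.655). *Atox1* (0.09, SE 0.18) and *Atp7a* (-0.04, SE 0.20) differed by less than their errors.

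*Plod2* and the prolyl 4-hydroxylase subunits are textbook targets of hypoxia-inducible factors, and 15 other such targets were measured. Their median difference was -0.29, and 14 of 15 were lower in the high MMP mean (58.1% of all genes averaging 10 or more), with 0 past the threshold in limma and 3 lower at an unadjusted p under 0.05. Over all genes, 6.01% were lower at that unadjusted p. The median was -0.29 in high MMP 1 and -0.29 in high MMP 2. *Pdk1*, which restrains pyruvate entry into mitochondria, had 530 and 395 in high and 725 and 819 in low MMP cells (-0.75, SE 0.18, adjusted p 0.472). *Ankrd37* had 32.6 and 22.6 in high and 41.0 and 43.4 in low MMP cells (-0.62, SE 0.27, adjusted p 0.587). *Bnip3*, a mitophagy receptor, had 527 and 310 in high and 521 and 615 in low MMP cells (-0.49, SE 0.29, adjusted p 0.699). For each target the lowest library was a high MMP library, high MMP 1 for 6 of them and high MMP 2 for 9. Of all 12902 genes averaging 10 or more, 4816 were lowest in high MMP 1 and 3777 in high MMP 2. Both high MMP libraries were below both low MMP libraries for 10 of 15, against 23.7% of all genes averaging 10 or more. *Plod2* stood at -0.45 and 0.18 from low MMP in high MMP 1 and 2. Of the targets singled out after their values were seen, *Vegfa*, the angiogenic growth factor, stood at -0.41 and 0.53. The glycolytic genes *Hk2*, *Ldha* and *Pgk1* stood at 0.06, 0.15 and 0.11 in high MMP 1 and at -0.07, -0.48 and -0.29 in high MMP 2.

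**Figure D4:**
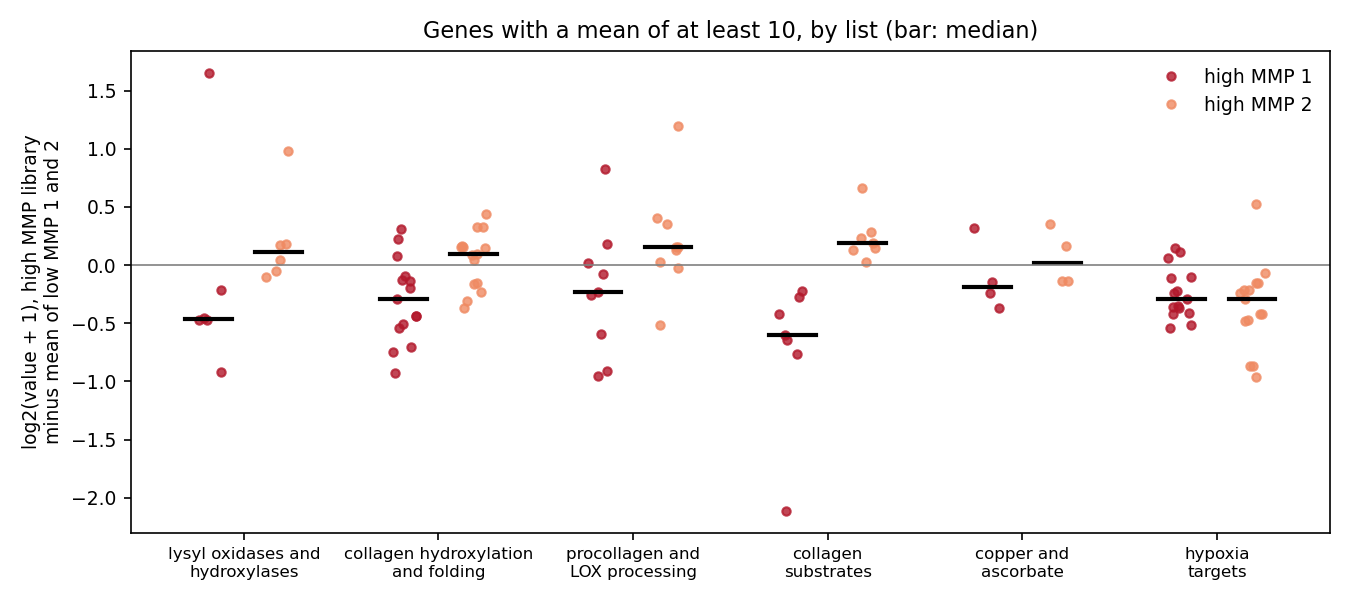
Difference of each high MMP library from the mean of the low MMP libraries on the log2(value + 1) scale, with a point for each gene averaging 10 or more and a bar at the median of each list. Collagen substrates lie at a median of -0.60 in high MMP 1 and 0.19 in high MMP 2, while hypoxia targets lie at -0.29 in both.

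Other measures also differed between libraries or between the groups. The gap between the high MMP libraries depended on exon length, with a median of 0.16 in the shortest of 5 length bins (up to 2.15 kb) and -0.17 in the longest (7.35 kb and longer). In the bins that hold *Loxl3*, *Loxl4* and *Plod3* (3.49 to 5.00 kb) and *Plod1* and *Plod2* (5.00 to 7.35 kb) the median was -0.02 and -0.07, against gaps of -0.52 to -0.82 for *Loxl4* and the hydroxylases. The trend with length was not particular to high MMP 1. From the shortest to the longest bin, the median of high MMP 1 minus low MMP went from 0.08 to -0.11. That of high MMP 2 minus low MMP went from -0.10 to 0.05, and that of low MMP 1 minus low MMP 2 from -0.07 to 0.06. The share of mitochondrially encoded transcripts was lowest in high MMP 1, and its part in the result was not tested. Between the groups, the G2/M-phase list had a median of 0.32 (54 genes) and the S-phase list of -0.33 (43 genes). The median of all genes averaging 10 or more was -0.03. Cell cycle phase itself was not measured, and its part in the levels of these enzymes was not tested.

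**Figure D5:**
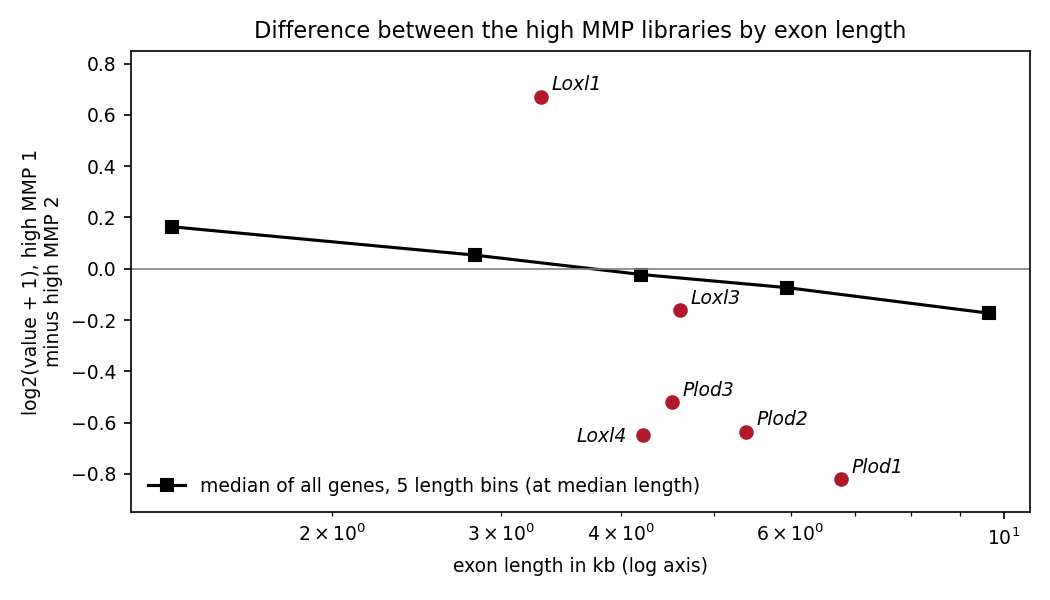
Difference between high MMP 1 and high MMP 2 on the log2(value + 1) scale against exon length in kb (log axis), for the 6 members averaging 10 or more (circles) and as the median of all such genes in 5 length bins (squares). *Loxl4* and the hydroxylases lie at -0.52 to -0.82, below the bin medians of -0.02 and -0.07 at their lengths, and *Loxl1* lies above at 0.67.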

How the data were processed

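RNA-seq of 4 samples (2 high MMP, 2 low MMP) was analysed, grouped by title. The authors aligned reads to the mouse transcriptome (GRCm38/mm10) with STAR (HTSeq is also named in the submitters' processing notes), divided counts by library size and removed genes that too few samples expressed (all kept genes are above 0 in 2 or more). Versions, annotation release and strand setting are not given in the sources used here. The deposited values are a normalized signal per gene summing to 20000000 per library, with 0 columns of no sample. All values were whole multiples of 1 step per library (within 0.05 reads, 100% of values), so whole reads were recovered. Symbols, positions and exon lengths (union of exons) came from GENCODE M21 (19993 of 20197 identifiers).

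log2(value + 1) was tested over all genes with limma 3.58.1 (trend, no block, R 4.3.3), with Benjamini-Hochberg adjustment and a threshold of 0.05. An exact permutation test could not go below 0.333 with 2 against 2. Fold changes on this scale understate those of low genes. Scripts were tested on simulated data.

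The genes and lists were chosen with earlier results of these data known. Named are the measured members, the 3 genes of each pathway list with the largest absolute difference at a mean of at least 10, and the 5 nearest to *Loxl1*. Any other gene is marked where it is named. Alternatives were pseudocounts, filters, scalings, no trend, replicate blocks, edgeR 4.0.16 and DESeq2 1.42.0 on recovered reads, and leaving out each library.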

Additional observations from a re-analysis of the deposited data

How the results depend on the processing

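Over all alternatives that keep the 4 libraries, each of the 7 genes kept the sign of its difference. Leaving out 1 library turned 5 of them. The ranges over the 4 such fits, with 3 libraries each, were 0.90 to 1.74 for *Loxl1*, -0.0075 to 0.93 for *Loxl2* (-0.0075 without high MMP 2), -0.34 to 0.066 for *Loxl3* (0.066 without low MMP 2), -0.48 to 0.17 for *Loxl4* (0.17 without high MMP 1), -0.92 to -0.10 for *Plod1*, -0.45 to 0.18 for *Plod2* (0.18 without high MMP 1) and -0.48 to 0.043 for *Plod3* (0.043 without high MMP 1). The count of the 6 tested genes past the threshold was 0 in each of these fits. *Loxl2* could not be fitted with a mean of at least 10, and DESeq2 gave it no adjusted p. With the replicate number as a block, limma and edgeR each called 0 of the 6 genes (1 at an unadjusted p under 0.05 in edgeR), and DESeq2 called 0. Among the 55 measured pathway genes, limma called 0 with and without the block. With the replicate block edgeR called 1 (*Pdk1*, adjusted p 0.0317, with 0.525% of all genes called). Without the block edgeR called 0 (0% of all genes), as did DESeq2 (0.985% of the 11974 genes to which it gave an adjusted p). The titles do not say that a number marks a shared sort, and same-numbered samples deviated in opposite directions (correlation of -0.421 over 12902 genes). A block with crossed numbers, chosen after seeing the data, gave 0 calls in limma, and in edgeR 1 of the 6 genes (*Plod1*, -0.46, adjusted p 0.0136) and 9 of 55 pathway genes, where 3.63% of all genes were called. Depth limits *Loxl1* and *Loxl2*, with at most 43 and 8 reads per library. The value of *Plod1* moved from -0.51 to -0.10 without high MMP 1.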

Other observations

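High MMP 1 was the lowest library for 32 of the 50 pathway genes averaging 10 or more, against 37.3% of all such genes. The abundant genes named here were chosen after their values were seen. *Bmp1*, the proteinase that cleaves both procollagen and the LOX propeptide, had 4664 normalized reads in high MMP 1 and 7700 in high MMP 2, against 7185 and 6918 in low MMP cells. *Fn1*, the fibronectin on which LOX assembles, had 42010 and 65096 in high and 51544 and 47110 in low MMP cells. *Serpinh1*, the collagen chaperone of the endoplasmic reticulum, had 10415 and 15008 in high and 15471 and 12921 in low MMP cells. In these 3 high MMP 1 was the lowest library. It was not the lowest for other abundant genes of the lists. *P4hb*, the shared subunit of prolyl 4-hydroxylase, had 10840 and 10576 in high and 11329 and 12437 in low MMP cells. *Ldha*, lactate dehydrogenase A, had 31072 and 20062 in high and 25386 and 31014 in low MMP cells. *Ppib*, a proline isomerase of the endoplasmic reticulum, had 8113 and 8592 in high and 7894 and 7497 in low MMP cells.

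*Pdgfra*, listed as a fibroblast marker and singled out after its values were seen, had 319 and 363 in high and 536 and 589 in low MMP cells. The groups did not overlap and differed by -0.72. Its adjusted p was 0.472 in limma and 0.0399 in DESeq2, which called 0.985% of the genes given one. In edgeR it was called neither with the replicate block nor with none. With crossed numbers as the block edgeR did call it (adjusted p 3.19e-06). That block was chosen after seeing the data and called 3.63% of all genes, so the call adds no support. The other measured fibroblast markers were near 0 in all 4 libraries.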
